A study of Homo sapiens with 9 samples.

Results

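The genes described here are 41 interferon-stimulated and antigen presentation genes, taken by gene symbol from a table of 17492 genes in HCCLM3 cells. All 41 symbols had a row. Of these, 36 had enough reads to be tested, and IFITM1, BST2, TRIM22, RSAD2 and IFI44L did not. By role they comprised 7 genes of antigen presentation, 4 transcription factors, 2 RNA sensor helicases, 4 IFIT genes, 4 membrane restriction factors, 4 OAS genes, 3 genes of the ISG15 system, 5 other antiviral effectors, 6 genes that are XAF1 or carry an IFI name, and 2 PARP genes.

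Interferons are secreted proteins that bind cell surface receptors, whose kinases TYK2, JAK1 and JAK2 phosphorylate STAT proteins. STAT proteins together with IRF9 form the complex ISGF3, which acts at interferon-stimulated response elements (ISRE), while STAT dimers act at gamma-activated sites (GAS). The target genes restrict viral replication, and many of them also load and display peptides on HLA class I molecules, through which cytotoxic T cells recognise tumour and infected cells.

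HCCLM3 is a human liver cancer cell line (hepatocellular carcinoma) that metastasises readily, labelled wild type in all groups. One group of 3 samples received the solvent DMSO (control), another quercetin at 50 µM and another quercetin at 100 µM. Quercetin is a plant flavonol. How long the cells were treated is not stated in the labels. Nor do they say that the replicates were separate cultures, so p-values measure only how far these samples differ from each other, and that spread may be technical.

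Messenger RNA was sequenced to between 20061136 and 21599805 estimated reads per library. Within control, replicate 1 stood apart from the other libraries (a chi-square statistic per gene of 27.6 and 27.4, against 3.56 between replicates 2 and 3), and within 100 µM replicate 3 did so (83.9 and 86.1, against 5.04 between replicates 1 and 2). Both stayed in the fit, and values without both are given where they matter. Those values rest on 2 libraries in control and 2 at 100 µM. The omitted libraries were picked for their distance from their groups, so that fit understates the spread and its p-values are too small. The keratins KRT8 and KRT18 and the liver factor HNF4A were present, while APOA1 and EPCAM stayed under 1 TPM in every library. The 11 measured liver cell markers, mostly KRT8 and KRT18, summed to 5799 to 6756 TPM in control, 5140 to 5279 TPM at 50 µM and 3983 to 6048 TPM at 100 µM, and their part in the results was not tested. Of 13 leukocyte markers, 8 stayed under 1 TPM in every library, among them CD3E, MS4A1 and CD14. The other 5 (PTPRC, LYZ, CD68, LCP1 and CORO1A) reached at least 1 TPM in some library. The summed level of the 13 markers was 190.3 to 264.7 TPM in control, 168.4 to 185 TPM at 50 µM and 258.5 to 385.3 TPM at 100 µM, of which CD68, a lysosomal protein, made 162.4 to 375.6 TPM. The 6 measured dendritic cell and HLA class II markers summed to 0.84 to 2.32 TPM in control, 1.86 to 2.15 TPM at 50 µM and 2.05 to 2.47 TPM at 100 µM, with HLA-DRA and HLA-DRB1 under 1 TPM everywhere. Endothelial markers, mostly PECAM1, summed to 19.9 to 22.4, 10.3 to 12.2 and 11.0 to 14.2 TPM in these groups, and fibroblast markers, mostly LUM, to 57.8 to 87.2, 66.2 to 73.6 and 63.7 to 109.6 TPM, with VWF, COL1A1 and PDGFRB under 1 TPM.

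The 41 genes spanned a wide range of levels, compared between genes as TPM, which corrects for gene length and library size. B2M, the invariant light chain of HLA class I, was the most abundant, at a mean of 1605 TPM over the 9 libraries. IFITM3, a membrane protein that blocks virus entry, followed at 482.9 TPM, and OAS1, which makes the 2-5A messenger in response to double-stranded RNA, at 235.3 TPM. HLA-E had 189.0 TPM and HLA-C 129.8 TPM, while HLA-B had only 16.7 TPM. ISG15 had 37.4 TPM, OAS2 23.3 TPM, IFI27 5.98 TPM and IFI6 5.64 TPM. Several others had means under 1 TPM. MX1, a GTPase that traps viral particles, had 0.516 TPM, IFIT1, which binds uncapped viral RNA, had 0.993 TPM, IFI44 had 0.888 TPM and XAF1 had 0.929 TPM. RSAD2, the antiviral enzyme viperin, had 0.0711 TPM and its highest count in any library was 6.3 reads.

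**Figure D1:**
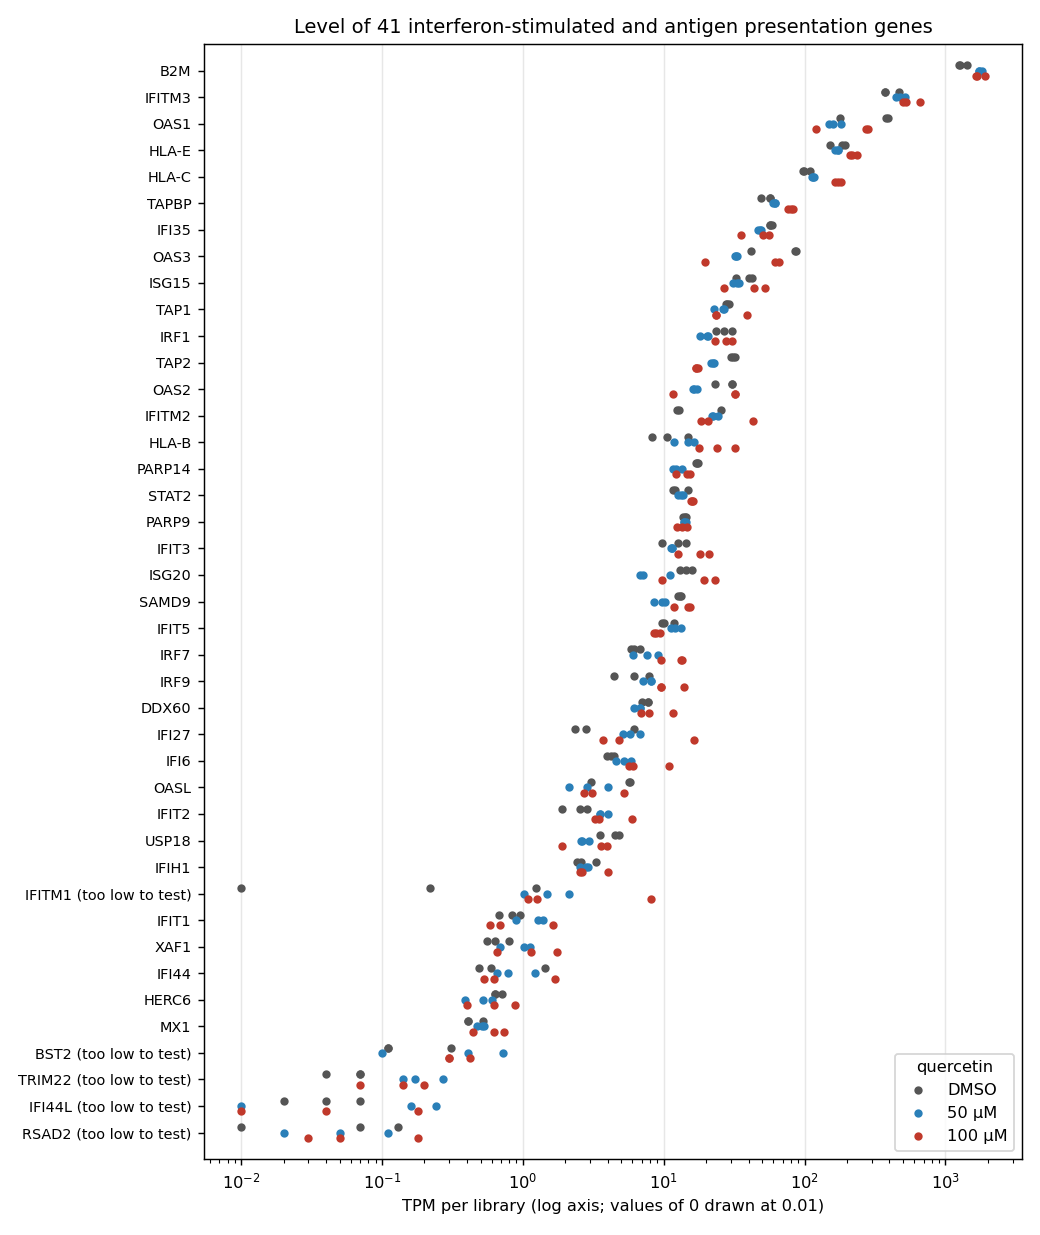
TPM of each of the 41 genes in each of the 9 libraries, on a log axis, with genes ordered by their mean and points coloured by group. B2M lies at the top at a mean of 1605 TPM, and RSAD2 at the bottom at 0.0711 TPM.

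Promoter sequences from RefSeq (GRCh38.p14; 250 bases before to 50 bases after the gene start) were found for 33 of the 41 genes. IRF7, IFIT2, IFITM2, OAS2, OASL, USP18, TRIM22 and HLA-E had no entry. The ISRE core, read as GAAA, any 2 bases and GAAA again on either strand, occurred in 24 of these 33 genes (72.7%) and in 4.38% of 27305 genes with such windows. The GAS motif TTCNNNGAA, which reads the same on both strands, occurred in 11 of 33 (33.3%) against 9.38% of all genes. The windows of HLA-B, HLA-C, STAT2, IRF1, IRF9, OAS1, IFI35, XAF1 and HERC6 held no ISRE core as read here. That reading asks for exactly 2 bases between, so other spacings and partial matches are missed. The windows of OAS1, XAF1 and IFI35 hold GAAA, 1 base and GAAA again. Those of HLA-B and HLA-C hold TTTCACTTC, which is 1 base short of a match. The 250 bases before the start are shown for 6 genes on which the results turn, 5' to 3' in the direction of the gene, with every ISRE core in capitals. In B2M and TAPBP 2 overlapping cores form one run of capitals.
B2M (chr15:44711267-44711516, plus strand): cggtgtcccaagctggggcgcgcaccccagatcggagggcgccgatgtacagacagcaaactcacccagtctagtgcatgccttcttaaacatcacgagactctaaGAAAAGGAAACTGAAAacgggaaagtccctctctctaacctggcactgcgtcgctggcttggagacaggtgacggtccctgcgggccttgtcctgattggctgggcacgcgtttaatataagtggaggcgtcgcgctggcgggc
TAPBP (chr6:33314079-33314328, minus strand): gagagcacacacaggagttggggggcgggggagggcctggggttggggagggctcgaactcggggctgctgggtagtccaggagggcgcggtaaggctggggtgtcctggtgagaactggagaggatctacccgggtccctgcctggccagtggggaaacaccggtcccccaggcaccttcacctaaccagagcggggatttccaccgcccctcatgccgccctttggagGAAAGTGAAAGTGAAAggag
TAP2 (chr6:32838740-32838989, minus strand): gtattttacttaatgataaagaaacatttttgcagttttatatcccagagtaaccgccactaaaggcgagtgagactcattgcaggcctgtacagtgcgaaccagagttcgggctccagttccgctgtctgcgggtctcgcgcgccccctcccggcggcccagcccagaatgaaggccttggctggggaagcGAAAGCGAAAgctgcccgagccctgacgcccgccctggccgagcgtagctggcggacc
HLA-C (chr6:31272093-31272342, minus strand): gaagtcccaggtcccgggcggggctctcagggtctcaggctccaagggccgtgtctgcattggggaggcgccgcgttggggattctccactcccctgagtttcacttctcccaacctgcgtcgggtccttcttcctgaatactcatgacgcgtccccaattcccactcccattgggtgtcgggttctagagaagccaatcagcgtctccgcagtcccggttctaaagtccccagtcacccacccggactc
IFI6 (chr1:27672193-27672442, minus strand): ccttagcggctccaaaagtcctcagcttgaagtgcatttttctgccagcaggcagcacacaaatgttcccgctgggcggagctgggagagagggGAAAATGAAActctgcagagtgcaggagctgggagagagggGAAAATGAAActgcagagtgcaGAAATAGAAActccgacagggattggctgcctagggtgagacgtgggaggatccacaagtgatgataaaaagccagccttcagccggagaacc
OAS3 (chr12:112938224-112938473, plus strand): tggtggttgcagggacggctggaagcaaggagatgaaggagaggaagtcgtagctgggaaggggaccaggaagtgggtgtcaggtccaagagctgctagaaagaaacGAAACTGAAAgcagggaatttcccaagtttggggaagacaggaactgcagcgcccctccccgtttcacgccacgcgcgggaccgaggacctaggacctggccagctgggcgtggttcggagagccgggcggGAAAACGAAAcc
The cores of B2M begin 144 and 138 bases before the start, those of TAPBP 20 and 14 bases before it, and the core of TAP2 58 bases before it. IFI6 holds 3 cores and OAS3 holds 2. A match is a description of the letters and not of binding, and a missing match does not mean that a promoter has no ISRE.

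At 100 µM quercetin 6 of the 7 genes that display peptides to T cells changed. The HLA class I heavy chains HLA-B, HLA-C and HLA-E, the light chain B2M and the loading chaperone TAPBP (tapasin) rose, by 1.32- to 2.32-fold. TAP2, which forms the peptide transporter together with TAP1, fell 1.56-fold. In bulk RNA, more cells that express a gene and more RNA per cell cannot be told apart. Of the 41 genes, 11 rose and 1 fell among 36 tested at 100 µM against control (edgeR's quasi-likelihood test, Benjamini-Hochberg adjusted p under 0.05 over all 12832 genes tested). That is 33.3% of those tested, where 21.0% of all tested genes passed (10.7% higher, 10.3% lower). Antigen presentation made up 5 of the rises and the fall, out of 7 genes, and the other 29 tested genes gave 6 rises (20.7%). The median log2 fold change was 0.28 over the 36 genes and 0.0009 over all tested genes. With control replicate 1 and 100 µM replicate 3 both left out, 15 rose and 5 fell, where 48.6% of all genes passed (24.2% higher, 24.4% lower). CD68 of the leukocyte list rose too (log2 fold change 0.60, adjusted p = 0.0238, edgeR), while the defining markers of T and B cells stayed near 0. The part of CD68-expressing cells in these results was not tested.

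**Figure D2:**
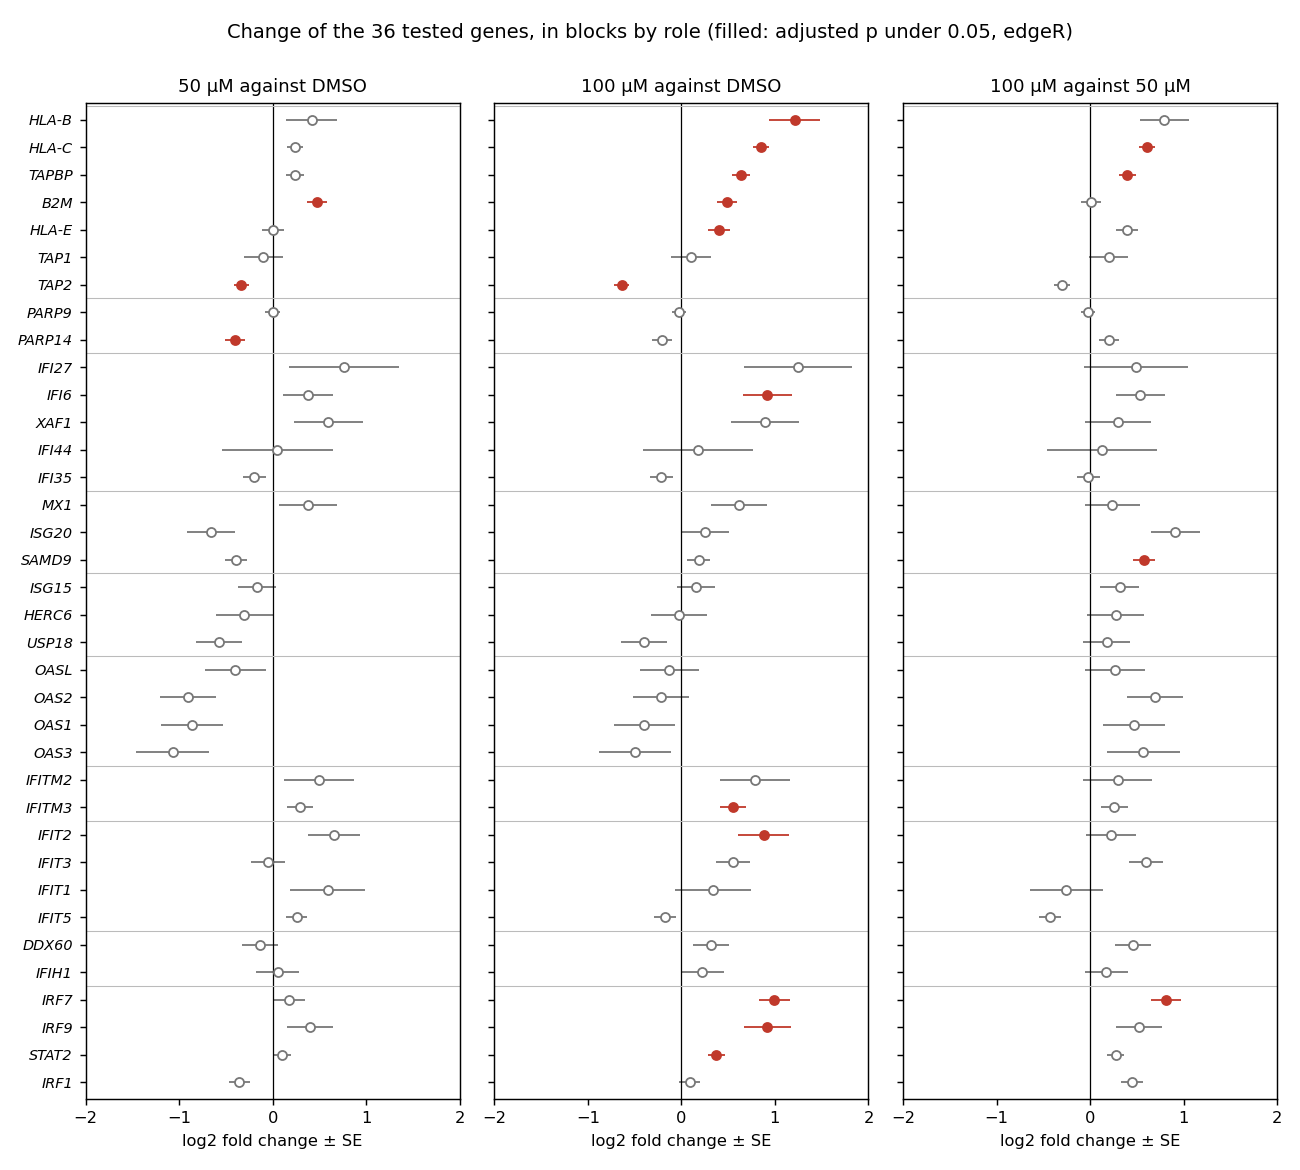
Log2 fold change with its standard error for the 36 tested genes in each of the 3 comparisons, in blocks by role, with filled red points where the adjusted p was under 0.05. In the middle panel, 100 µM against DMSO, 11 filled points lie above 0 and 1, TAP2, below it.

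At 50 µM against control, 1 gene rose (B2M) and 2 fell (TAP2 and PARP14) of the 36 tested, or 8.33%, against 11.6% of all tested genes (5.28% higher, 6.31% lower). The median log2 fold change was 0.03, and 0.0033 over all genes. Without both libraries that stand apart, 13 rose and 11 fell, where 57.4% of all genes passed (28.5% higher, 28.9% lower). Those that fell then included OAS1, OAS2, OAS3, ISG15, ISG20, USP18 and IRF1, and those that rose included IFIT1, IFIT2, IFIT5, IFITM2 and IFITM3.

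Between the doses, 4 genes were higher at 100 µM (HLA-C, TAPBP, IRF7 and SAMD9) and 0 lower, or 11.1% of those tested, against 4.15% of all genes (2.25% higher, 1.89% lower). At an unadjusted p under 0.05 there were 12 higher and 2 lower, and DESeq2 called 9 higher and 2 lower. The shares of all genes that passed under these readings are not given here. The median log2 fold change was 0.30, and 0.0121 over all genes. Without both libraries, 15 were higher and 3 lower (IFIT1, IFIT5 and TAP2), where 47.3% of all genes passed (24.6% higher, 22.7% lower).

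Counted by overlap of the libraries against control, all 100 µM libraries lay above in 11 genes and below in 1, where 17.3% and 18.6% of all genes did so. At 50 µM the numbers were 9 and 11 (24.4% and 24.6%), and between the doses 11 above and 2 below (13.3% and 14.4%). An exact permutation test of 3 against 3 libraries cannot give a p under 0.1.

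HLA-C, a heavy chain that presents peptides and is also a ligand of natural killer cell receptors, lies on chromosome 6 (31268749 to 31272130, GRCh38). Its normalised counts (CPM, scaled to library size) were 74.2, 67.3 and 70.0 in control, 83.1, 80.4 and 86.2 at 50 µM and 114.8, 130.9 and 135.0 at 100 µM. No group overlapped another. At 100 µM it was 1.80-fold over control (log2 fold change 0.85 ± 0.083 SE, adjusted p = 0.000436, edgeR, n = 3 per group) and 1.53-fold over 50 µM (0.61 ± 0.083, adjusted p = 0.00768, edgeR). The difference of 0.24 at 50 µM did not pass the test (adjusted p = 0.0837, edgeR). It passed with DESeq2 (adjusted p = 0.0423). With edgeR it passed with only the groups compared (0.0238), without 100 µM replicate 3 (0.0185) and without both libraries that stand apart (0.000579). The rise over 50 µM did not pass with each 50 µM library left out in turn (adjusted p from 0.0501 to 0.0592, edgeR).

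HLA-B gave 10.1, 7.35 and 5.90 CPM in control, 8.63, 10.54 and 12.1 CPM at 50 µM and 12.3, 17.3 and 24.7 CPM at 100 µM. The 100 µM libraries all lay above the control and 50 µM libraries, with a spread from lowest to highest that was wide in each group. The rise over control was 2.32-fold (log2 fold change 1.21 ± 0.27 SE, adjusted p = 0.0141, edgeR), and it did not pass without control replicate 2 (adjusted p = 0.0590, edgeR) or without control replicate 3 (0.0617). HLA-E, the non-classical heavy chain read by the NKG2 receptors of natural killer cells, gave 174, 225 and 221 CPM in control, 210.0, 198 and 214 CPM at 50 µM and 248, 261 and 308 CPM at 100 µM. It rose 1.32-fold at 100 µM (0.40 ± 0.117, adjusted p = 0.0393, edgeR) with no overlap with either other group. Without control replicate 1, which was the lowest, the log2 fold change was 0.29 (adjusted p = 0.0639, edgeR), and leaving out control replicate 2 or 3, 100 µM replicate 2 or each 50 µM library in turn also ended the call (0.0623 to 0.0747). HLA class I genes are near-identical and vary between people, and HLA-B and HLA-C overlap in the annotation, so how reads were split among them is uncertain.

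B2M (chromosome 15, 44711487 to 44718877) was the only one of the 36 tested genes called higher at both doses. It gave 591, 533 and 538 CPM in control, 804, 738 and 769.9 CPM at 50 µM and 690.6, 728 and 906 CPM at 100 µM. Every treated library lay above every control library, and the doses overlapped each other. The rise was 1.39-fold at 50 µM (log2 fold change 0.48 ± 0.108 SE, adjusted p = 0.0250, edgeR) and 1.40-fold at 100 µM (0.48 ± 0.108, adjusted p = 0.0138, edgeR). At 50 µM it did not pass on omission of control replicate 2, control replicate 3 or each 50 µM library in turn (adjusted p from 0.0716 to 0.117, edgeR), and at 100 µM without control replicate 2 (0.0608) or 3 (0.0586). Both values share the control samples.

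TAPBP (chromosome 6, 33299694 to 33314387), which bridges empty class I molecules to the transporter, gave 86.0, 85.6 and 77.1 CPM in control, 95.0, 97.9 and 101.0 CPM at 50 µM and 115, 127 and 144 CPM at 100 µM. The 3 groups did not overlap and were ordered by dose. At 100 µM it was 1.56-fold over control (log2 fold change 0.64 ± 0.093 SE, adjusted p = 0.00237, edgeR). It was 1.32-fold over 50 µM (0.40 ± 0.093, adjusted p = 0.0470, edgeR), a call that leaving out control replicate 2 or 3, each 50 µM library in turn or 100 µM replicate 2 ended (adjusted p up to 0.181). The TAPBP value of 0.24 at 50 µM did not pass (adjusted p = 0.113, edgeR). It passed with only the groups compared (0.0262), without 100 µM replicate 3 (0.0162) and without both libraries that stand apart (0.00076, edgeR).

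TAP2 (chromosome 6, 32821833 to 32838780) went the other way. It gave 46.2, 51.1 and 49.9 CPM in control, 38.6, 37.4 and 40.5 CPM at 50 µM and 29.9, 31.1 and 33.5 CPM at 100 µM. Its groups also did not overlap. The fall from control was 1.26-fold at 50 µM (log2 fold change -0.34 ± 0.081 SE, adjusted p = 0.0293, edgeR) and 1.56-fold at 100 µM (-0.64 ± 0.081, adjusted p = 0.00125, edgeR). At 50 µM it did not pass on omission of control replicate 2, control replicate 3 or each 50 µM library in turn (adjusted p from 0.0960 to 0.140, edgeR). The change between doses was -0.30 (adjusted p = 0.0672, edgeR). That change passed under 5 of 18 alternatives, DESeq2 among them (adjusted p = 0.0159). TAP1, its partner in the transporter, gave 33.2, 33.4 and 33.2 CPM in control, 27.9, 32.1 and 33.2 CPM at 50 µM and 27.6, 28.4 and 51.2 CPM at 100 µM. The third 100 µM library was 1.83 times the mean of the other two, and the log2 fold change of 0.10 over control did not pass (adjusted p = 0.758, edgeR). With both libraries that stand apart left out it was -0.24 (adjusted p = 0.0233, edgeR).

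**Figure D3:**
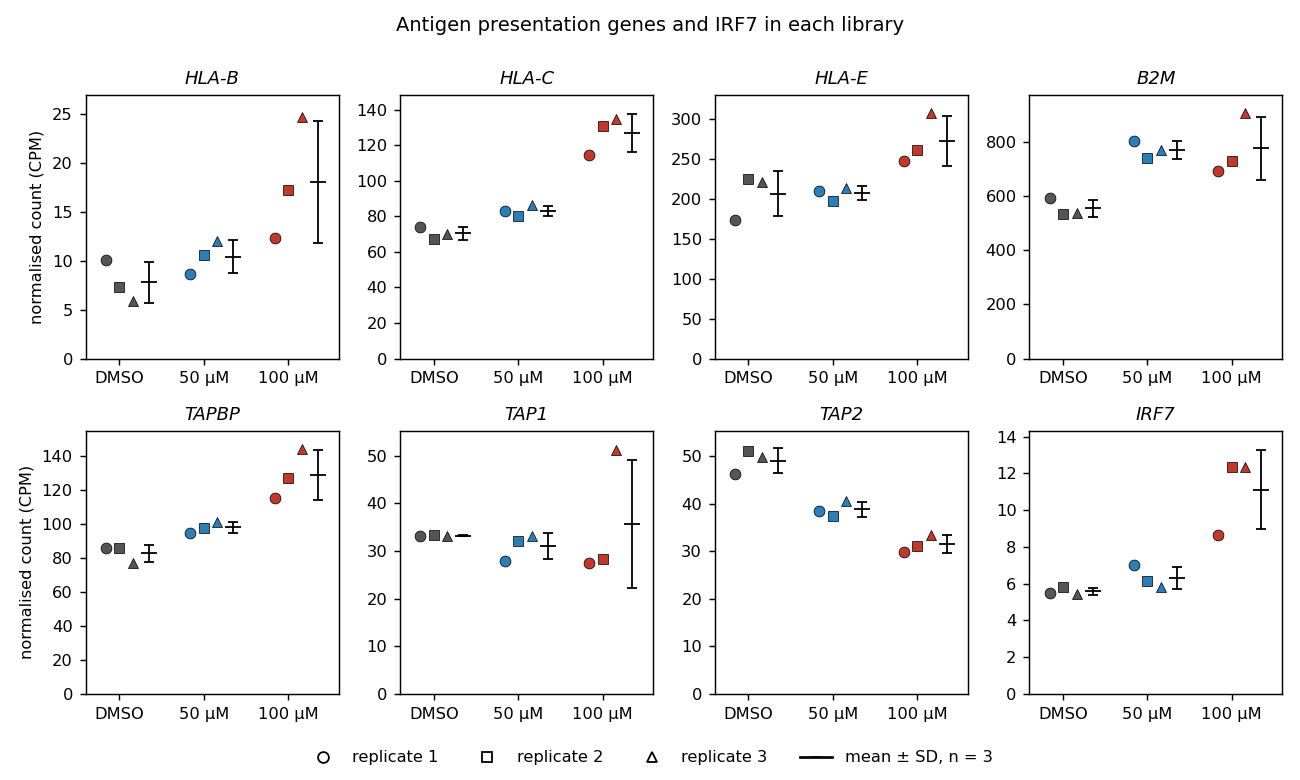
Normalised counts (CPM) of HLA-B, HLA-C, HLA-E, B2M, TAPBP, TAP1, TAP2 and IRF7 in each library, from 0, with marker shape giving the replicate and bars the mean ± SD of 3. HLA-C and TAPBP step up from DMSO to 50 and 100 µM, TAP2 steps down, and TAP1 has 1 high library at 51.2 CPM.

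Of the transcription factors that act downstream of interferon, 3 of 4 rose at 100 µM (75.0%, where 10.7% of all tested genes rose). At 50 µM 0 passed with edgeR, 1 had an unadjusted p under 0.05 (IRF1, lower), and DESeq2 called 1. IRF7, which amplifies type I interferon production, gave 5.48, 5.80 and 5.44 CPM in control, 7.002, 6.13 and 5.82 CPM at 50 µM and 8.62, 12.3 and 12.4 CPM at 100 µM. All 100 µM libraries lay above all others. The rise was 1.99-fold over control (log2 fold change 0.99 ± 0.163 SE, adjusted p = 0.00375, edgeR) and 1.76-fold over 50 µM (0.81 ± 0.162, adjusted p = 0.0273, edgeR). The latter did not pass on omission of control replicate 2 or 3, each 50 µM library in turn or 100 µM replicate 2 (adjusted p from 0.0536 to 0.134, edgeR).

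IRF9, the DNA-binding part of ISGF3, gave 5.75, 3.25 and 4.73 CPM in control, 5.66, 6.13 and 6.33 CPM at 50 µM and 7.11, 7.25 and 11.7 CPM at 100 µM, without overlap between control and 100 µM. Its rise at 100 µM was 1.89-fold (log2 fold change 0.92 ± 0.247 SE, adjusted p = 0.0284, edgeR). STAT2, a STAT protein of ISGF3, gave 28.7, 24.6 and 24.1 CPM in control, 28.6, 27.2 and 27.0 CPM at 50 µM and 32.0, 32.9 and 35.2 CPM at 100 µM, again without overlap, a rise of 1.29-fold (0.37 ± 0.092, adjusted p = 0.0204, edgeR). Without control replicate 2 or 3 neither passed (adjusted p of 0.0962 and 0.0844 for IRF9 and of 0.0829 and 0.0844 for STAT2), and IRF9 also did not pass without 50 µM replicate 2 (0.0512) or 3 (0.0506). IRF1, a factor induced chiefly by interferon gamma, gave 24.7, 29.2 and 32.5 CPM in control, 22.2, 23.3 and 22.01 CPM at 50 µM and 30.1, 33.5 and 28.3 CPM at 100 µM. The 50 µM libraries were the lowest, but no IRF1 comparison passed (adjusted p of 0.0651 at 50 µM, 0.600 at 100 µM and 0.0551 between the doses, edgeR). With both libraries that stand apart left out, IRF1 was -0.46 at 50 µM (adjusted p = 2.14e-05) and 0.51 between the doses (7.13e-06, edgeR).

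Among the IFIT genes, whose products bind viral RNA, 1 of 4 rose at 100 µM (25.0%, where 21.0% of all tested genes passed). IFIT2 gave 4.38, 2.97 and 4.07 CPM in control, 5.76, 5.62 and 6.61 CPM at 50 µM and 5.09, 5.63 and 10.3 CPM at 100 µM. Every treated library lay above control, and 100 µM replicate 3 was the highest. The rise was 1.84-fold at 100 µM (log2 fold change 0.88 ± 0.274 SE, adjusted p = 0.0482, edgeR), and without 100 µM replicate 3 it was 0.50 (0.0610). The IFIT2 call also ended on omission of each control library and each 50 µM library in turn (adjusted p from 0.0515 to 0.162, edgeR). IFIT3 gave 10.45, 13.8 and 16.2 CPM in control, 13.1, 12.8 and 13.2 CPM at 50 µM and 23.2, 20.4 and 15.4 CPM at 100 µM. Control and 100 µM overlapped, and the IFIT3 log2 fold change at 100 µM was 0.55 (adjusted p = 0.0578, edgeR). It passed with DESeq2 (0.55, adjusted p = 0.0272), with upper-quartile scaling (0.58, 0.0410), without 100 µM replicate 3 (0.71, 0.00500) and without both libraries that stand apart (0.55, 5.57e-05). IFIT1 and IFIT5 had log2 fold changes of 0.34 and -0.18 at 100 µM that did not pass. In IFIT1, 100 µM replicate 3 was 2.75 times the mean of the other two. Without both libraries IFIT1 was -0.20 against control (adjusted p = 0.600) and -0.90 against 50 µM (0.00388, edgeR).

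Among the membrane restriction factors IFITM3 rose at 100 µM. IFITM3 gave 121, 98.4 and 100.4 CPM in control, 123, 137 and 132 CPM at 50 µM and 132, 143 and 194 CPM at 100 µM, where all libraries lay above control. The rise was 1.47-fold (log2 fold change 0.55 ± 0.143 SE, adjusted p = 0.0245, edgeR) and did not pass without control replicate 2 (0.0927) or 3 (0.0918). IFITM2, chosen here after its values were seen, gave 11.3, 5.51 and 5.85 CPM in control, 10.4, 11.0 and 10.6 CPM at 50 µM and 8.29, 9.53 and 21.4 CPM at 100 µM. Its log2 fold change of 0.79 at 100 µM did not pass (adjusted p = 0.158, edgeR). Without both libraries that stand apart IFITM2 passed at 50 µM (0.91, adjusted p = 2.80e-07) and at 100 µM (0.66, 0.000162, edgeR). The IFITM genes are near-identical neighbours on chromosome 11, so the split of reads between them is uncertain. IFITM1 had at most 53 reads, in 100 µM replicate 3, and BST2 (tetherin) at most 6.99.

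The OAS genes varied widely within control and 100 µM. OAS1 gave 129, 276 and 296 CPM in control, 142, 115 and 128 CPM at 50 µM and 214, 215 and 104 CPM at 100 µM. OAS3, the family member that reacts to long double-stranded RNA, gave 124, 265 and 264 CPM in control, 106, 101 and 104 CPM at 50 µM and 201, 193 and 67.2 CPM at 100 µM. OAS2 gave 32.8, 45.9 and 47.1 CPM in control, 22.5, 21.4 and 23.2 CPM at 50 µM and 45.6, 44.7 and 17.8 CPM at 100 µM. OAS2 and OAS3 are named after their values were seen. In all 3 genes control replicate 1 was the lowest control (0.451, 0.706 and 0.469 of the mean of the other two for OAS1, OAS2 and OAS3), and 100 µM replicate 3 was the lowest library of its group (0.483, 0.394 and 0.340).

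Of the 4 OAS genes 0 passed in any comparison with edgeR's test on all libraries, 3 had an unadjusted p under 0.05 at 50 µM, and DESeq2 called 2 lower there. At 50 µM the log2 fold changes were -0.86 for OAS1 (adjusted p = 0.110, unadjusted p = 0.0267), -0.91 for OAS2 (0.0756, 0.0136) and -1.07 for OAS3 (0.0977, 0.0216), and the value of -0.40 for OASL had an unadjusted p of 0.246. With control replicate 1 and 100 µM replicate 3 left out, the 50 µM values were -1.16 for OAS1, -1.06 for OAS2 and -1.35 for OAS3. All 3 passed (adjusted p at most 7.42e-13, edgeR), where 57.4% of all tested genes passed. The spread within control was removed after it was seen, so the p-values of this fit overstate the certainty. In the same fit OAS1, OAS2 and OAS3 were higher at 100 µM than at 50 µM by 0.75, 1.02 and 0.94 on the log2 scale (adjusted p at most 1.80e-09). Against control at 100 µM, OAS1 (-0.41) and OAS3 (-0.41) passed in that fit and OAS2 (-0.03) did not.

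**Figure D4:**
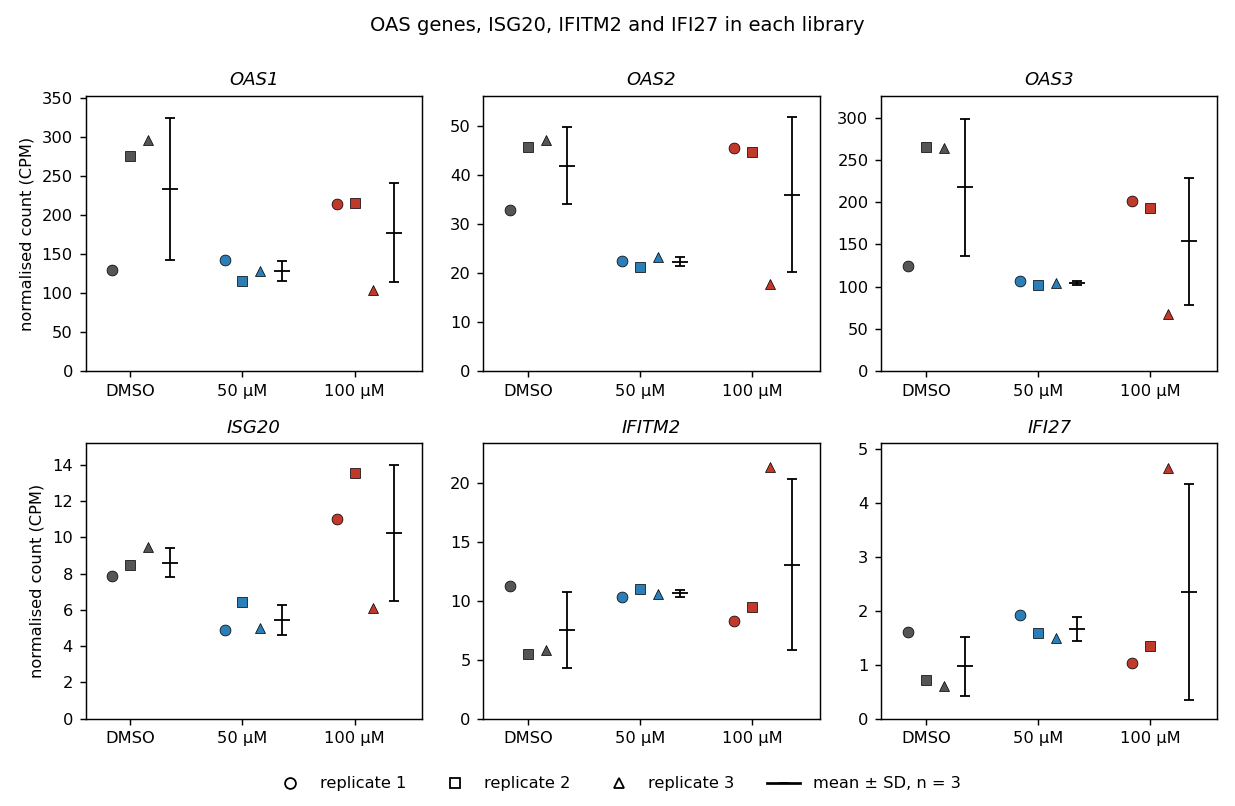
Normalised counts (CPM) of OAS1, OAS2, OAS3, ISG20, IFITM2 and IFI27 in each library, from 0, with marker shape giving the replicate and bars the mean ± SD of 3. In the OAS genes the first control library and the third 100 µM library lie low in their groups, and in IFITM2 and IFI27 the same libraries lie high.

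Control replicate 1 and 100 µM replicate 3 were each compared with the mean of the other libraries of their group. Both lay more than 1.2-fold below that mean in 6 of the 36 tested genes (IFIT3, OAS1, OAS2, OAS3, ISG15 and USP18). Both lay more than 1.2-fold above it in 11 (IRF9, IFIH1, IFIT1, IFIT2, IFITM2, IFITM3, OASL, IFI27, IFI44, XAF1 and HLA-B), and in opposite directions in 1 (HLA-E). The share of all tested genes that did so was not counted. Over all tested genes the deviations of these libraries from their group means correlated at 0.533, so shared deviation was not limited to the genes described here. Of the genes that rose at 100 µM, IRF9, IFIT2, IFITM3 and HLA-B are thus among those in which these libraries were high. All 19 calls made on all libraries also passed with both left out. That adds little, since the omission lowers the spread and 47.3% to 57.4% of all genes passed in that fit. Only 4 of the 19 calls passed under every alternative.

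Genes of the ISG15 system and the other antiviral effectors gave 0 calls at 100 µM against control, with edgeR, at an unadjusted p under 0.05 and with DESeq2. ISG15, a ubiquitin-like modifier, gave 8.76, 11.6 and 11.2 CPM in control, 9.83, 9.28 and 9.12 CPM at 50 µM and 12.1, 14.9 and 8.15 CPM at 100 µM, with overlapping groups and log2 fold changes of -0.16 and 0.15 that did not pass. ISG20, an RNA exonuclease, gave 7.85, 8.48 and 9.46 CPM in control, 4.89, 6.41 and 5.03 CPM at 50 µM and 11.02, 13.5 and 6.13 CPM at 100 µM. All 50 µM libraries of ISG20 lay below control, and its log2 fold change of -0.66 did not pass (adjusted p = 0.118, edgeR). Without both libraries that stand apart ISG20 was -0.72 at 50 µM (adjusted p = 5.17e-05) and 0.46 at 100 µM (0.00519, edgeR). Between the doses ISG20 was 0.91 and did not pass (adjusted p = 0.0782, edgeR), while it passed with DESeq2 (0.0155). With edgeR it also passed without 100 µM replicate 3 (1.17, 0.000747) and without both libraries (1.18, 1.9e-08).

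SAMD9, which arrests translation and restricts poxviruses, gave 40.5, 39.5 and 41.4 CPM in control, 33.1, 31.0 and 28.3 CPM at 50 µM and 46.5, 38.1 and 53.2 CPM at 100 µM. The 50 µM libraries were the 3 lowest. SAMD9 was 1.49-fold higher at 100 µM than at 50 µM (log2 fold change 0.58 ± 0.12 SE, adjusted p = 0.0323, edgeR), while its value of -0.39 at 50 µM against control did not pass (adjusted p = 0.0590). That 50 µM value passed under 5 of 18 alternatives, DESeq2 among them (adjusted p = 0.0252). The call between doses ended on omission of control replicate 2 or 3, each 50 µM library in turn or 100 µM replicate 1 (adjusted p from 0.0610 to 0.152, edgeR). MX1, USP18 and HERC6 passed in no comparison.

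The 5 tested genes that are XAF1 or carry an IFI name gave 1 call. That is 20.0% at 100 µM against control, near the 21.0% of all tested genes. IFI6, a mitochondrial and endoplasmic reticulum protein that protects infected cells from death, gave 1.55, 1.51 and 1.48 CPM in control, 1.97, 2.18 and 1.77 CPM at 50 µM and 2.12, 4.00 and 2.47 CPM at 100 µM. Its control libraries were the lowest, and the rise at 100 µM was 1.89-fold (log2 fold change 0.92 ± 0.263 SE, adjusted p = 0.0359, edgeR). Without 100 µM replicate 2 the IFI6 value was 0.60 (adjusted p = 0.104), and omission of any control or 50 µM library also ended the call (0.0552 to 0.110). IFI35, a partner of NMI, gave 30.6, 30.2 and 30.7 CPM in control, 27.3, 25.3 and 27.3 CPM at 50 µM and 26.8, 30.9 and 21.1 CPM at 100 µM, and did not pass. IFI27, chosen after its values were seen, gave 1.60, 0.707 and 0.610 CPM in control, 1.92, 1.58 and 1.49 CPM at 50 µM and 1.04, 1.35 and 4.65 CPM at 100 µM, and its value of 1.25 at 100 µM did not pass (adjusted p = 0.150, edgeR). Without both libraries IFI27 passed at 50 µM (1.32, adjusted p = 0.000669) and at 100 µM (0.86, 0.0472), and XAF1 at 50 µM (0.75, 0.0444, edgeR). On all libraries XAF1 and IFI44 passed in no comparison.

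PARP14, an ADP-ribosyltransferase induced by interferon, gave 60.3, 61.6 and 61.5 CPM in control, 45.8, 48.6 and 44.3 CPM at 50 µM and 52.4, 45.4 and 61.3 CPM at 100 µM. It fell 1.32-fold at 50 µM (log2 fold change -0.40 ± 0.106 SE, adjusted p = 0.0386, edgeR), with all 50 µM libraries under all control libraries. Its value of -0.20 at 100 µM did not pass (adjusted p = 0.190). The call at 50 µM ended on omission of control replicate 2 or 3, each 50 µM library in turn or 100 µM replicate 1 (adjusted p from 0.0529 to 0.154, edgeR). PARP9, its partner, stayed between 21.3 and 23.1 CPM in all 9 libraries and overlaps DTX3L on the opposite strand. Of the helicases, DDX60 gave 21.1, 21.4 and 20.0 CPM in control, 19.6, 19.1 and 18.2 CPM at 50 µM and 22.1, 19.8 and 35.97 CPM at 100 µM. Neither DDX60 nor IFIH1, the sensor MDA5, passed in any comparison.

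Set by promoter, 5 of the 9 genes called at 100 µM that had a RefSeq window held an ISRE core (B2M, TAPBP, TAP2, IFI6 and IFITM3), and HLA-B, HLA-C, STAT2 and IRF9 did not. Of the 20 tested genes with a window that were not called, 15 held one. The called genes thus include the windows printed above for TAPBP and TAP2, which moved in opposite directions, and for HLA-C, which holds no core as read here. Elements of other spacing or with a mismatch were not counted in this split.

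Upstream of these genes, the interferon system of HCCLM3 was followed in 62 further genes in 4 roles, of which 52 had a row and 45 were tested. Of 9 interferon ligands only IFNE and IFNG had a row, with at most 6 and 1 reads in any library. Of 10 tested receptors, kinases and STATs, 5 rose at 100 µM and 0 fell (edgeR; also 0 at an unadjusted p under 0.05 and with DESeq2), where 21.0% of all tested genes passed. Without both libraries that stand apart 7 rose and 2 fell, where 48.6% of all genes passed. At 50 µM edgeR called 0 of them, where 4 had an unadjusted p under 0.05 and DESeq2 called 3 higher. Of the 5 called at 100 µM, those with the largest changes were IFNAR2, a chain of the type I interferon receptor (log2 fold change 0.59, adjusted p = 0.0158, edgeR), IFNGR2, a chain of the interferon gamma receptor (0.57, adjusted p = 0.00193), and STAT3 (0.53, adjusted p = 0.00562). IFNGR2 gave 116, 101 and 106 CPM in control, 127, 123 and 127 CPM at 50 µM and 152, 157 and 171 CPM at 100 µM, rising with no overlap between groups. IFNGR2 and STAT3 were also higher at 100 than at 50 µM (0.35 and 0.55, adjusted p of 0.0436 and 0.0182, edgeR).

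Of 12 tested sensors and adaptors, 1 rose and 2 fell at each dose. That is 25.0%, where 11.6% of all tested genes passed at 50 µM and 21.0% at 100 µM. STING1, the adaptor of cytosolic DNA sensing, gave 6.12, 4.85 and 4.98 CPM in control, 11.3, 10.4 and 10.8 CPM at 50 µM and 20.4, 21.6 and 10.5 CPM at 100 µM. The third 100 µM library thus lay at the level of 50 µM. The log2 fold change was 1.03 at 50 µM (adjusted p = 0.0305, edgeR) and 1.72 at 100 µM (0.00232). ADAR, which edits double-stranded RNA and so shields it from MDA5, fell at both doses (-0.54 and -0.47, adjusted p of 0.0247 and 0.0238, edgeR), as did the kinase EIF2AK2 (PKR; -0.36 and -0.37, adjusted p of 0.0284 and 0.0156).

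Of 16 further genes of antigen processing, 5 were higher and 2 lower at 100 µM at an unadjusted p under 0.05. DESeq2 called 4 higher and 0 lower. By the adjusted p of edgeR 3 rose and 0 fell. That is 18.8%, near the 21.0% of all tested genes. PSMB10, a catalytic subunit of the immunoproteasome, rose by 0.46 (adjusted p = 0.0217) and PDIA3, a partner of tapasin in the loading complex, by 0.28 (0.0482). RFX5, which binds the promoters of HLA genes, rose at 50 µM (0.57, adjusted p = 0.0243, edgeR), the 1 call of this list there (6.25%, against 11.6% of all genes). Of 7 tested feedback regulators SOCS3, an inhibitor of JAK kinases, rose at 100 µM against control (1.23, adjusted p = 0.00171, edgeR) and against 50 µM (0.85, adjusted p = 0.0247). It was the 1 call of its list in each, or 14.3%, where 21.0% and 4.15% of all genes passed. Over these 45 genes, 10 rose and 2 fell at 100 µM, or 26.7% where 21.0% of all tested genes passed. At 50 µM 2 rose and 2 fell, or 8.89% against 11.6%. Between the doses 3 were higher and 0 lower, or 6.67% against 4.15%. There 11 were higher and 2 lower at an unadjusted p under 0.05, and 5 higher and 1 lower with DESeq2. Without both libraries that stand apart, 17 rose and 7 fell at 100 µM (48.6% of all genes passed), 18 rose and 15 fell at 50 µM (57.4%), and 19 were higher and 5 lower between the doses (47.3%).

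In the authors' deposited table (q under 0.05, DESeq2 per the file headers), 8 of the 41 genes were higher and 1 lower at 100 µM against control, where 11.2% of all genes with a q passed. The rises of HLA-E (q = 0.0757), IFIT2 (0.0792) and IFI6 (0.0969) called here did not pass there. At 50 µM the authors' deposited table had 5 of them higher and 7 lower (22.4% of all genes), and between the doses 7 higher and 1 lower (5.86%). At 50 µM HLA-C, IFIT2, IFITM3 and TAPBP (higher) and IRF1, ISG20, OAS2, OAS3 and SAMD9 (lower) passed there but not here. Of these, OAS2 had q = 3.04e-08 and OAS3 q = 0.0119. Between the doses HLA-E, IFIT3 and IRF1 (higher) and IFIT5 (lower) passed there but not here.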

How the data were processed

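RNA-seq of 9 HCCLM3 samples in 3 groups of 3, set by the labels, was analysed. The authors deposited 1 table with estimated counts per gene, TPM, FPKM and a normalised signal per library, and their own comparisons (log2 fold changes, q-values and p-values). FPKM and the normalised signal were not used. The submitters' processing notes name HISAT2 2.0.4, Bowtie2 2.2.5, RSEM 1.2.12 and GRCh38.p13, and give no strand setting. Per the labels' protocols, libraries were made from poly(A) RNA and treated with duplex-specific nuclease, which compresses differences in abundance.

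Estimated counts were rounded, filtered with filterByExpr (minimum count 10, minimum total 15, share 0.7; 4660 genes removed) and scaled by TMM. All 9 libraries entered 1 quasi-likelihood fit in edgeR 4.0.16 (R 4.3.3, limma 3.58.1). Adjusted p-values (Benjamini-Hochberg) cover 12832 genes, with a threshold of 0.05. Standard errors of log2 fold changes had a median of 0.134. The tests were tested on simulated data. CPM in the text are TMM-scaled, and TPM are the deposited values. Positions are from the GENCODE annotation of GRCh38.

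The members and lists were chosen with earlier results of these data known. Values per library are given for each called gene and for the most abundant gene of each role. From the other pathway lists, called genes are named, up to 3 per list and comparison. Alternatives were DESeq2 1.42.0, other scalings, no filter, only the groups compared, log2 TPM with a pseudocount of 1 or 0.1 in limma, a replicate block and omission of libraries. Results of some genes on the lists are not reported here.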

Additional observations from a re-analysis of the deposited data

How the results depend on the processing

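The 19 calls made on all libraries kept their direction under all 18 alternatives, and 4 of them (HLA-C, IRF7, TAP2 and TAPBP at 100 µM against control) passed under each. Numbers of genes are given as higher and lower. At 50 µM, where 1 rose and 2 fell, DESeq2 gave 2 and 6, only the groups compared 5 and 8, upper-quartile scaling 1 and 1, and omission of both libraries that stand apart 13 and 11. At 100 µM, where 11 rose and 1 fell, only the groups compared gave 4 and 1, and omission of both 15 and 5. Between the doses, where 4 were higher and 0 lower, DESeq2 gave 9 and 2, limma on log2(TPM + 1) or log2(TPM + 0.1) 3 and 1, only the groups compared 1 and 0, and omission of both 15 and 3. Leaving out 1 library at a time gave 0 to 6 higher and 0 to 8 lower at 50 µM, 3 to 12 higher and 1 to 2 lower at 100 µM, and 0 to 10 higher and 0 to 3 lower between the doses. The share of all genes that passed also moved with the setting. On all libraries it was 11.6% at 50 µM, 21.0% at 100 µM and 4.15% between the doses. Without both it was 57.4%, 48.6% and 47.3%. The shares under the other alternatives, the replicate block among them, are not given here, so these counts cannot be read as results about the genes. Omission of both removes the libraries farthest from their groups and so lowers the spread, and the cause of the other changes was not tested.

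The replicate block gave 0 higher and 0 lower at 50 µM, 8 higher and 1 lower at 100 µM, and 1 higher and 0 lower between the doses. Deviations of samples of the same number from their group means correlated from -0.464 to 0.276 over 9 pairs. Control replicate 1 and 100 µM replicate 3, which differ in number, correlated at 0.533. The libraries that stand apart weigh on all these values. Whether samples of the same number share a batch is not stated in the labels and was not tested.

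Over the 21 genes taken by the naming rule, signs changed in 21 cases, all among changes that had not been called. HLA-E at 50 µM gave -0.001 with no filter, -0.045 with either limma fit, -0.106 without both libraries and -0.101 to 0.075 with 1 library omitted. B2M between the doses gave -0.013 with either limma fit, -0.111 without both and -0.121 to 0.083 with 1 library omitted. IFI35 between the doses gave 0.123 without both and -0.153 to 0.113 with 1 omitted, and IFIT2 gave -0.153 without both and -0.163 to 0.409. With 1 library omitted, IFIT3 at 50 µM ran from -0.195 to 0.112, and at 100 µM IRF1 ran from -0.005 to 0.192, ISG15 from -0.061 to 0.363 and ISG20 from -0.002 to 0.524. Among the other genes, omission of both libraries changed further signs of values that had not been called, among them TAP1 at 100 µM (-0.24, adjusted p = 0.0233, edgeR), IFIT1 at 100 µM (-0.20), and IFI27 and IFITM2 between the doses (-0.47 and -0.25).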
